A study of Ipomoea batatas with 18 samples.

Results

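Roots of the low-starch sweetpotato (Ipomoea batatas) cultivar 15-94 were compared at 65 days and at 30 days of age, over 24534 of the 46840 unigenes in the table. A unigene is a transcript of a de novo assembly. Members of the comparison had an FPKM of at least 1 in at least 3 of its 6 libraries, where FPKM is the number of fragments scaled by transcript length and library size. The study also holds roots of 15-94 at 100 days and of the high-starch cultivar Chuanshu 218 at the same 3 ages, with 3 libraries per group and 18 in all. All plants grew in greenhouse pots under natural light, with no treatment named. The labels do not tie a library to a plant, so every p-value rests on library-to-library spread, some of which may be technical.

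In this crop some of the young adventitious roots thicken into storage roots. Cambial cells divide, lignification of the centre is held back, and parenchyma cells fill with starch and with storage proteins such as sporamin and beta-amylase. Roots that lignify instead remain thin. In bulk tissue, more cells of a type and more RNA per cell cannot be told apart. The deposited IDs carry no gene names, and 0 of them matched the gene table of assembly IBA_r1.0. The label "root" could therefore not be checked against marker genes, pathway lists could not be applied, and members are described by level, age, cultivar and shared pattern.

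The 6 libraries were uneven before any age comparison. Unigenes above 0 FPKM numbered 26788, 30477 and 31939 at 65 days (replicates 1, 2 and 3), against 24300, 29446 and 26687 at 30 days. The means were 29735 ± 2655 and 26811 ± 2575 (SD, n = 3 each; exact permutation, two-sided p = 0.2), and the ages overlapped. Read numbers are not given, but the spacing of low FPKM values shows how much FPKM a single read adds. On a log2 scale, with the library of the smallest such value in the series at 0, this 1-read value was 1.09, 0.80 and 0.71 at 65 days, against 2.0, 0.93 and 1.52 at 30 days. If the values were not scaled further between libraries, 30-day replicates 1 and 3 were the shallowest of the 6. The top 10 unigenes by abundance held 11.2%, 9.51% and 25.8% of the FPKM at 65 days, and 9.69%, 5.45% and 9.33% at 30 days. Replicate 3 at 65 days thus stood apart. Without it the mean share was 2.20 percentage points higher at 65 days than at 30 days, against 7.35 with it. Some later results are also given without it. The median member had 7.96, 8.88 and 8.08 FPKM at 65 days and 7.59, 8.18 and 8.37 FPKM at 30 days. The FPKM of a library summed to 1045670, 831427 and 1205520 at 65 days, and to 1371650, 872039 and 1048970 at 30 days.

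**Figure D1:**
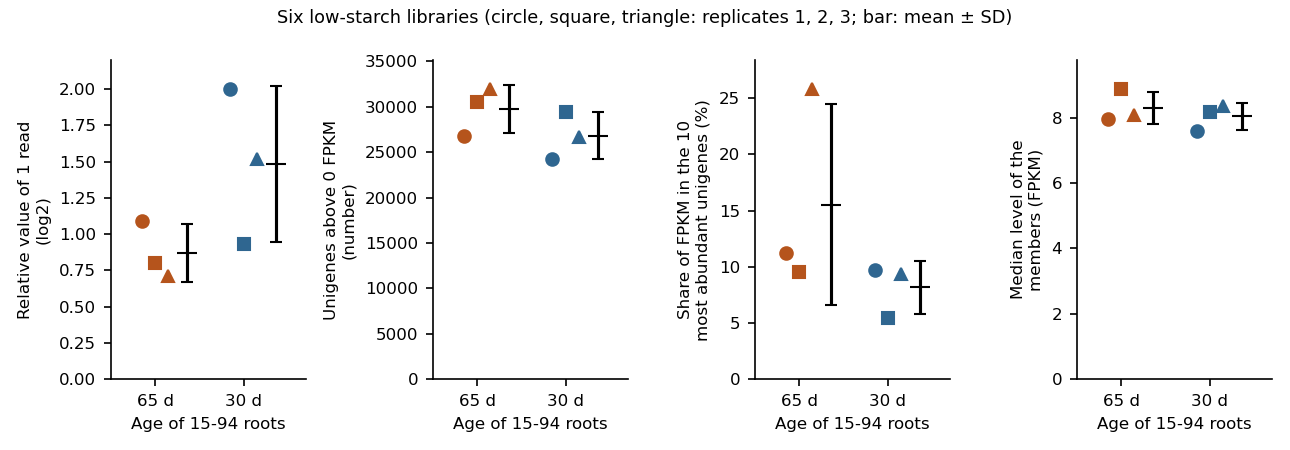
Measures of the 6 libraries of 15-94 roots, with 65 d left of 30 d: the log2 value of 1 read, the number of unigenes above 0 FPKM, the percentage of FPKM in the 10 most abundant unigenes and the median FPKM of the members. Symbols are replicates, bars are the mean ± SD of 3 libraries, and 65 d replicate 3 sits alone at 25.8% in the third panel.

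Age divided the libraries only partly. Over the members, 29.1% of the variance in log2(FPKM + 1) lay between the ages (exact permutation p = 0.1, the smallest that 3 against 3 libraries allow). Between 31.3% and 53.6% of members differed at least 2-fold in the 9 pairs of 1 library from each age, with a median of 37.7%. Pairs within 65 days had 29.9% to 34.5% and pairs within 30 days 32.4% to 46.8%, so these ranges overlapped with those between ages. The median SD of a member's log2 level over 3 libraries was 0.58 at 65 days and 0.66 at 30 days. In 65-day replicate 3, 379 members stood at least 4-fold above both other libraries of that age and held 26.5% of its FPKM. In 65-day replicates 1 and 2 such members numbered 50 and 146, and in 30-day replicates 1, 2 and 3 they numbered 274, 489 and 222.

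The comparison asks which root transcripts change between 30 and 65 days in the low-starch cultivar. The quartiles of the members' differences were -0.49 and 0.61 on the log2(FPKM + 1) scale, with a median of 0.10, and 77.3% stayed within 2-fold. At least 8-fold higher at 65 days were 16 members and at least 8-fold lower were 87. No member passed limma's test across all 32529 tested unigenes at an adjusted p under 0.05 and a 2-fold difference, and 0% of all tested unigenes did in either direction. The smallest adjusted p was 0.054, and 26 members higher and 21 lower had an adjusted p under 0.1. At an unadjusted limma p under 0.05, 1830 members were higher, 7.46% of the members, against 6.86% of all tested unigenes. Lower were 1652, 6.73% of the members, against 5.44% of all tested unigenes. The median standard error of a difference was 0.53 on this scale. Whether calls appeared depended on single libraries and on the processing. Without 30-day replicate 2, 12 members were called higher and 18 lower, and without 65-day replicate 2, 17 and 3. With all libraries kept, array weights gave 3 and 6, while median-of-ratios scaling gave 0 and 0.

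Another view of the same comparison is whether the libraries of the ages overlapped. In 1481 members all 3 libraries at 65 days lay above all 3 at 30 days with at least a 2-fold difference, which is 6.04% of members against 5.21% of all tested unigenes. The reverse held for 1430, which is 5.83% of members against 4.51% of all tested. These shares are near the background and say little about the members as such. The higher list had a median of 8.40 FPKM at 65 days against 2.32 FPKM at 30 days. The lower list was made of more abundant transcripts, with a median of 7.62 FPKM at 65 days against 29.2 FPKM at 30 days. At 100 FPKM or more at their higher age were 85 of the higher and 330 of the lower list. Differences of at least 8-fold were also on the lower side, with 73 members against 10. On the log2(FPKM + 1) scale this limit is harder to reach for low unigenes, and the higher list was the less abundant. Together the lower list took 6.49%, 6.64% and 3.51% of the FPKM at 65 days and 15.7%, 17.3% and 13.2% at 30 days. The higher list took 4.91%, 6.35% and 5.13% at 65 days and 1.28%, 2.02% and 1.94% at 30 days.

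**Figure D2:**
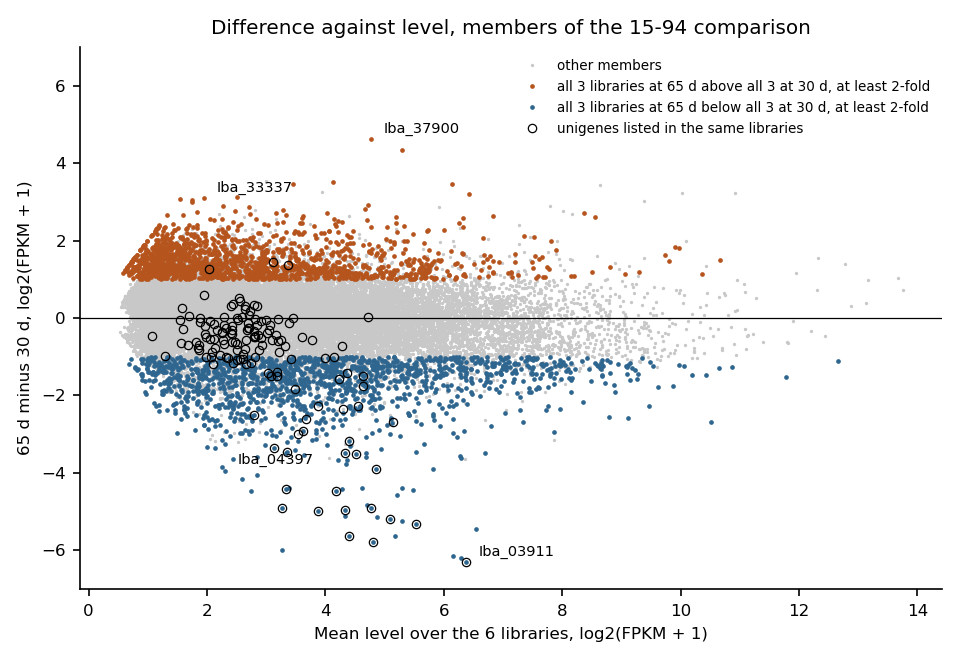
Each point is 1 of the 24534 members, with its mean level over the 6 libraries on the x axis and the 65 d minus 30 d difference on the y axis, both in log2(FPKM + 1). Orange points are the 1481 members whose libraries at 65 d all lay above those at 30 d, and blue points the 1430 below. Circles are the 141 unigenes listed in the same libraries. The differences of at least 8-fold are mostly below 0, and low unigenes can hardly reach them on this scale.

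The rule of membership lets in some unigenes through 1 age alone. At 1 FPKM or more in all 3 libraries at 65 days and in none at 30 days were 266 members, and 88 showed the opposite, and these had to differ. Listed at 0 in all 3 libraries at 30 days and at 1 FPKM or more in all 3 at 65 days were 53 members, against 6 for the reverse. A listed 0 may be a low level missed at this depth, and the 1-read value was largest in 30-day replicates 1 and 3. At 1 FPKM or more in all 6 libraries were 16516 members. Members that reached 1 FPKM in exactly 3 libraries numbered 2459 and had a median mean level of 1.40 FPKM. Just outside the rule, 3028 unigenes reached it in exactly 2 libraries, with a median mean level of 0.86 FPKM.

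Direction followed abundance in the values as deposited. Among 8519 members with a mean under 5 FPKM, 713 were in the higher and 261 in the lower list, 73.2% higher. From 5 to 20 FPKM the lists held 458 and 473 of 8413 members. From 20 to 50 FPKM they held 177 and 300 of 4071, and from 50 to 200 FPKM 102 and 276 of 2715. Among the 816 members at 200 FPKM and over, 31 were higher and 120 lower, 20.5% higher, and the median difference was -0.41 (log2) against 0.27 in the lowest class. Median-of-ratios scaling gave 70.1% higher in the lowest and 16.7% in the top class. Quantile normalization gave 55.3% and 53.3%. It gives every library the same distribution of values, so it largely removes a lean by level class by construction and cannot show whether the lean is real. Leaving out a library changed the top class in both directions. It held 55 higher and 75 lower without 30-day replicate 1 (42.3% higher), 70 and 118 without 65-day replicate 2 (37.2%) and 40 and 102 without 65-day replicate 3 (28.2%). It held 40 and 164 without 30-day replicate 3 (19.6%), 45 and 236 without 30-day replicate 2 (16.0%) and 36 and 205 without 65-day replicate 1 (14.9%). With 30-day replicate 2 as the only 30-day library, 55.7% of separated members were higher in the lowest class and 62.5% in the top class. That count sets 3 libraries against 1, so more members are separated by construction. Replicate 2 had the 30-day 1-read value nearest to those at 65 days, 0.93 (log2), and also had 489 members at least 4-fold above and 856 at least 4-fold below both other libraries of its age. The part of depth in the pattern was not tested.

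**Figure D3:**
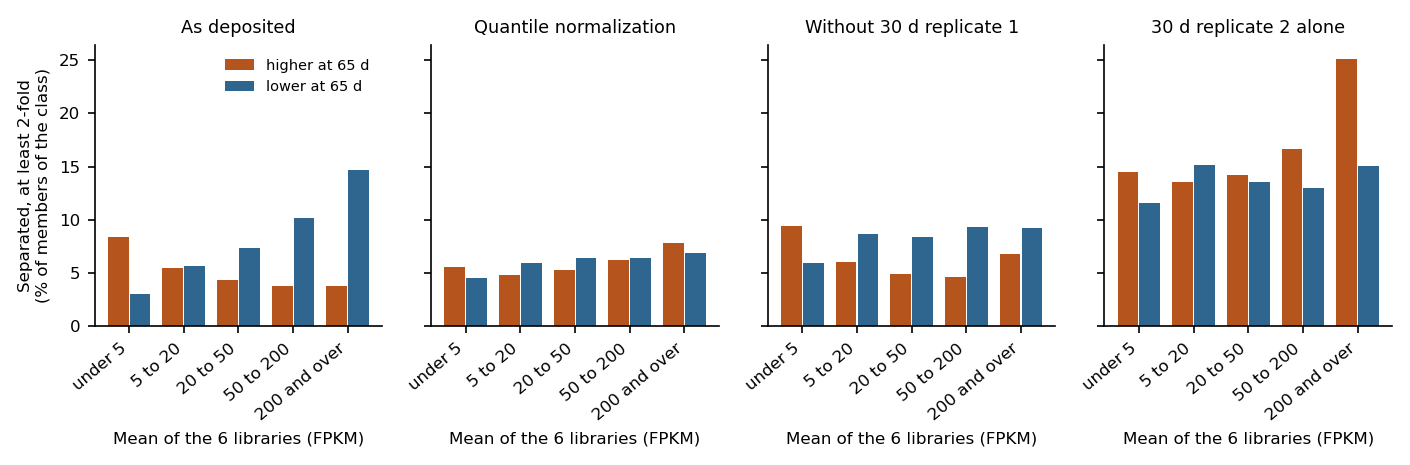
Percentage of members in each class of mean FPKM whose libraries at 65 d and 30 d did not overlap and differed at least 2-fold, higher (orange) or lower (blue) at 65 d. As deposited, lower members reach 120 of 816 in the top class. With quantile normalization, which evens out the distributions of the libraries by construction, higher members outnumber lower ones in that class (64 against 56). With 30 d replicate 2 as the only library of its age, the numbers are 205 higher against 123 lower. Without 30 d replicate 1 they are 55 against 75.

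The 4 unigenes described next were chosen by rule, in each direction the member with the largest difference and the one with the smallest p. Candidates had non-overlapping ages, an unadjusted limma p under 0.05 and a mean of at least 10 FPKM at the higher age, which 682 higher and 1026 lower members met. Their separation was therefore required by the choice.

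The largest positive difference was that of Iba_37900. It had 128.0, 275.3 and 68.3 FPKM in 65-day roots, against 0, 13.7 and 10.1 FPKM in 30-day roots. All 3 libraries at 65 days were several times above the highest at 30 days. This was 4.63 higher on the log2 scale (SE 1.25, adjusted limma p of 0.17), and without 30-day replicate 1, where it was listed at 0, it was 3.40. At 100 days it had 786.3, 748.9 and 231.7 FPKM, again lowest in replicate 3. In Chuanshu 218 it had 1118, 688.2 and 438.6 FPKM at 65 days, against 29.1, 2.29 and 429.3 FPKM at 30 days. Replicate 3 at 30 days thus nearly reached the lowest library at 65 days. The average there was 748 ± 344 FPKM at 65 days and 154 ± 239 FPKM at 30 days (SD, n = 3 each). On the log2 scale that was 4.32 higher (SE 1.25), with an adjusted limma p of 1. The interaction, which is the change in 15-94 minus that in Chuanshu 218, was 0.31 (SE 1.77, limma adjusted p = 0.99), an estimate too wide to show either equal or unequal change. Over the 12 libraries outside the comparison, 20 other members had log2 levels that correlated with it at r of at least 0.9. Of these, 19 were higher in 15-94 at 65 days than at 30 days, with a median difference of 1.58 (log2), while 54.8% of all members were higher. Among the 12 libraries Iba_37900 was low only in Chuanshu 218 at 30 days, replicates 1 and 2 (29.1 and 2.29 FPKM). Its other values there were 231.7 FPKM or more. These correlations therefore largely follow those low libraries, and a shared course with age was not tested.

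A different course was seen for Iba_33337, the higher member with the smallest p. It had 17.6, 5.27 and 11.6 FPKM in 65-day roots, against 0, 1.31 and 0 FPKM in 30-day roots. On the log2 scale it was 3.11 higher (SE 0.48, adjusted limma p of 0.054), and no library at 65 days overlapped with those at 30 days. In 15-94 at 100 days it had 2.34, 8.81 and 2.81 FPKM, below 2 of the 3 libraries at 65 days. It was listed at 0 in every Chuanshu 218 library except 30-day replicate 1, with 0.32 FPKM. The interaction was 3.24 (SE 0.68, limma unadjusted p = 0.000164, adjusted p = 0.67). It contains the 15-94 difference by which Iba_33337 was chosen, so its unadjusted p is no further support. Across the alternatives the adjusted limma p of the difference between ages in 15-94 ran from 0.0147 to 0.29.

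The largest negative difference was that of Iba_03911. It had 31.9, 0 and 23.9 FPKM in 65-day roots, against 1489, 224 and 1211 FPKM in 30-day roots. The lowest library at 30 days was still several times above the highest at 65 days. The log2 difference was -6.31 (SE 1.71, limma adjusted p = 0.17), and without 65-day replicate 2, where it was listed at 0, it was -4.69. With the 1-read value as a covariate it was -3.79 (limma adjusted p = 0.558). At 100 days it had 25.7, 31.3 and 2.10 FPKM. In Chuanshu 218 it was present in single libraries: 32.5, 0 and 161.9 FPKM at 65 days, 40.1, 0 and 0 FPKM at 30 days, and 0 in all 3 at 100 days. The interaction was -8.66 (SE 2.41, limma adjusted p = 0.96). Over the 12 libraries outside the comparison, 50 other members correlated with it at r of at least 0.9. In 15-94, 46 of them were lower at 65 days, with a median difference of -3.17 (log2), while 54.8% of all members were higher. Iba_03911 was listed at 0 in 6 of those libraries, so these correlations largely follow presence and absence. The set described below was defined by that same pattern, and how many of the 50 belong to it is not given.

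The lower member with the smallest p was Iba_04397. It had 0.46, 0 and 0.36 FPKM in 65-day roots, against 35.6, 7.85 and 21.2 FPKM in 30-day roots, so it was near 0 in every 65-day library. The log2 difference was -3.94 (SE 0.58, limma adjusted p = 0.054). At 100 days it was listed at 0 in all 3 libraries of 15-94. In Chuanshu 218 its highest value was 4.51 FPKM, in 65-day replicate 3. The interaction was -4.33 (SE 0.82, limma unadjusted p = 5.54e-05, adjusted p = 0.59). It contains the 15-94 difference by which Iba_04397 was chosen, so its unadjusted p is no further support. Across the alternatives the adjusted limma p of the difference between ages in 15-94 ran from 0.00802 to 0.286. Over the 12 libraries outside the comparison, no other member correlated with Iba_04397 at r of at least 0.9, while 489 did with Iba_33337. Of the 489, 256 were higher and 233 lower at 65 days. In those libraries Iba_04397 was mostly listed at 0, as was Iba_33337 in Chuanshu 218. These correlations rest on few values above 0, so neither count describes a shared course with age.

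**Figure D4:**
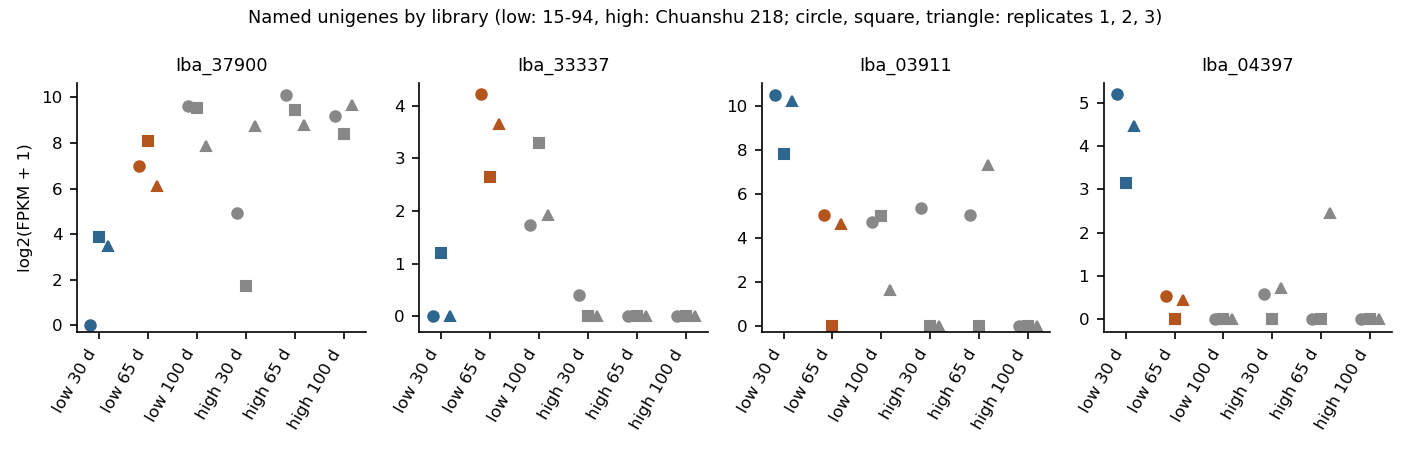
Levels of the 4 named unigenes in all 18 libraries as log2(FPKM + 1), for 15-94 (low) and Chuanshu 218 (high) at 30, 65 and 100 d. Symbols are replicates, and Iba_33337 and Iba_04397 lie near 0 in nearly all Chuanshu 218 libraries, while Iba_37900 is also high in Chuanshu 218 at 65 and 100 d and Iba_03911 is present in 3 of its 9 libraries.

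Iba_03911 belonged to unigenes that were present and missing together. The set was defined after its values were seen, in libraries outside the comparison: at least 1 FPKM in the 5 where Iba_03911 had 20 FPKM or more, and 0 in the 6 where it was listed at 0. These 141 unigenes were all members, and what follows is a description. In 65-day replicate 2, 140 of the 141 were listed at 0, although that library held more unigenes above 0 than 65-day replicate 1. In the other 5 libraries of the comparison every one of them was above 0. The same held in 100-day replicate 3 of 15-94, also not used by the definition, where 139 were listed at 0. Their summed FPKM was 3022, 0.30 and 1520 at 65 days and 7489, 1290 and 5426 at 30 days. Of 187 members listed at 0 in 65-day replicate 2 but at 1 FPKM or more in the other 5 libraries, 125 were of this set.

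For description the set was cut in 2 by 2 libraries outside the comparison, also after values were seen. In 13 unigenes the value in Chuanshu 218 at 65 days replicate 3 was above that at 30 days replicate 1, and in 128 it was below. No gap lay at this cut, and the nearest log ratios were 0.12 and -0.026. The 13, which include Iba_03911, summed to 143.3, 0.30 and 102.8 FPKM in 65-day roots of 15-94, against 4487, 711 and 3582 FPKM in 30-day roots. All 13 were in the lower list, with differences from -6.31 to -3.35 (log2). The 128 summed to 2879, 0 and 1417 FPKM at 65 days, against 3002, 578 and 1843 FPKM at 30 days. These ranges overlapped, and 6 of the 128 were in the lower list. The set supplied 17 of the 73 members that were separated and at least 8-fold lower. Without it the lower list held 1411 members and the higher list 1481.

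**Figure D5:**
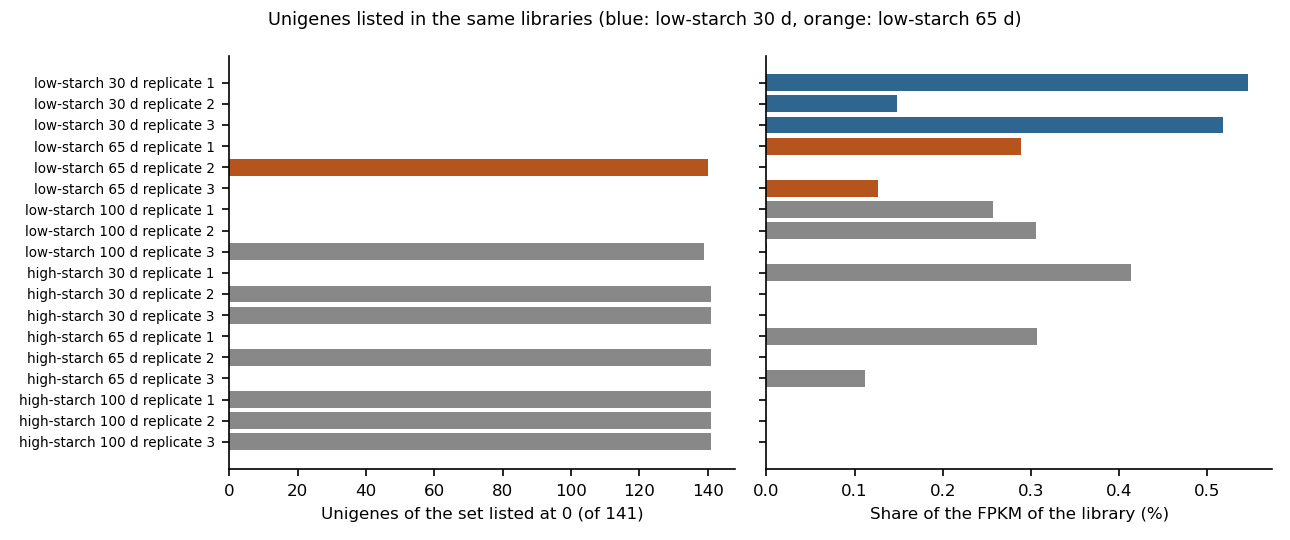
Number of the 141 unigenes of the set that were listed at 0 (left) and their percentage of the FPKM (right) in each of the 18 libraries. In 15-94, 65 d replicate 2 and 100 d replicate 3 list 140 and 139 of them at 0, while every other library of that cultivar lists none at 0.

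The later age gave values for both lists in libraries that had not chosen them. The median level of the higher list was 5.28, 4.56 and 7.78 FPKM in 100-day roots of 15-94. It lay above the 2.63 FPKM of the highest library at 30 days, and 2 of the 3 values were under the 7.29 FPKM of the lowest at 65 days. For 1023 of the 1481 the mean at 100 days was nearer to that at 65 than to that at 30 days. The lower list had medians of 11.1, 17.6 and 5.96 FPKM at 100 days, against 8.59, 7.52 and 5.86 FPKM at 65 days and 27.5, 28.1 and 24.4 FPKM at 30 days. For 1147 of the 1430 the mean at 100 days was nearer to that at 65 days. Over all members the count was 15475 of 24534.

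Chuanshu 218 at the same ages shares no library with this comparison. There the difference from 30 to 65 days was above 0 for 66.0% of the higher list and 29.4% of the lower list, against 51.0% of all members. The medians were 0.16 and -0.20 (log2), far smaller than the 1.38 and -1.51 that the choice of the lists fixed in 15-94. Both directions rested on single libraries. Without Chuanshu 218 at 30 days replicate 1, the shares were 36.9% and 65.4%, and without 65 days replicate 2 they were 46.7% and 49.9%. In 30-day replicate 1 of that cultivar the lower list had a median of 29.5 FPKM, against 8.03 and 15.1 FPKM in replicates 2 and 3. Replicates of 1 age in Chuanshu 218 thus spanned about the range seen between the ages in 15-94. That library also had the largest 1-read value of its cultivar, 1.21 (log2), and the part of depth was not tested.

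Separated and at least 2-fold higher in Chuanshu 218 at 65 days were 22 of the higher list. They are 1.49% of that list, against 0.876% of all tested unigenes so separated, and 14.1% of the 156 such members in Chuanshu 218. Separated and at least 2-fold lower were 21 of the lower list. They are 1.47% of that list, against 0.587% of all tested unigenes so separated, and 14% of the 150 such members. The interaction called 0 of 32529 unigenes, with a smallest adjusted limma p of 0.59. At an unadjusted p under 0.05 were 1125 members, 4.59% of the members, against 4.45% of all tested unigenes. No difference in change between the cultivars was therefore detectable with 3 libraries per group.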

How the data were processed

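The authors deposited 1 table of FPKM values for 46840 unigenes in 18 libraries, and each column was matched to 1 library by its title. Per the labels' protocols, DNA-free total RNA went into stranded TruSeq mRNA libraries. The submitters' processing notes list edgeR without saying what it did. The assembler, aligner, counter and library scaling were not given in the sources used here. FPKM values are not counts, so limma 3.58.1 (R 4.3.3) was fitted to log2(FPKM + 1) of the 32529 unigenes that reached 1 FPKM in 3 or more libraries, with 6 groups, 12 residual degrees of freedom, an eBayes trend and Benjamini-Hochberg adjustment over all of them. A call needed an adjusted p under 0.05 and a 2-fold difference. Differences on this scale understate changes of low unigenes. Separated means that the 3 libraries of 1 age all lay above the 3 of the other. The absolute depth is unknown, so no counting interval is given. The relative value of 1 read came from ratios of low values, with 99.7% of library pairs within 0.05 (log2) of the fitted values. Both steps were run on simulated data, with reads not scaled further between libraries and with independent noise. These runs cannot show whether the deposited values meet those assumptions. The members and lists were chosen with earlier results of these data known. The named unigenes followed the rule given with them. The set of 141, its cut into 13 and 128 and the likeness limit of 0.9 were chosen after values were seen. The alternatives were other pseudocounts, filters, scalings, fits, a replicate block, array weights, depth as a covariate and each library left out. Python 3.11.15, NumPy 2.4.6 and pandas 2.3.3 were used for the rest.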

Additional observations from a re-analysis of the deposited data

Results flagged for a closer look

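A small number of members moved in opposite directions in the 2 cultivars, with every library at 65 days on 1 side of every library at 30 days and at least a 2-fold difference in each. In 6 members the 65-day level was higher in 15-94 and lower in Chuanshu 218. In 3 members it was lower in 15-94 and higher in Chuanshu 218. These are 0.405% of the higher list and 0.21% of the lower list, while 0.611% and 0.636% of all members were so separated in Chuanshu 218 in those directions. The interaction, the change in 15-94 minus that in Chuanshu 218, had a smallest adjusted limma p of 0.59 among the 9, so none passed. Its median absolute size of 2.57 (log2) follows from how the 9 were picked and is no further support.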

How the results depend on the processing

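The 4 named unigenes kept their direction in each alternative computed for them, which for a library left out follows from their choice as separated, and no value was computed for them without the set of 141. The median difference of the members (0.10, log2) was 0.011 with a filter at 5 FPKM and 0.040 with the value of 1 read as a covariate. With no filter it was 0.148, over all 37420 unigenes above 0 in any of the 6 libraries. Of those 37420 unigenes, 13 were called higher and 4 lower with no filter. Members called higher and lower were 3 and 6 with array weights, 0 and 1 with a pseudocount of 0.1, and 0 and 3 with quantile normalization. Leaving out each library gave 0 to 17 called higher and 0 to 18 lower, 1320 to 2125 and 1168 to 1754 at an unadjusted p under 0.05, 1693 to 2873 and 1693 to 2595 separated (2 against 3 libraries separate more easily), medians of 0.067 to 0.109 and 0 to 1 interaction calls. The 5 FPKM filter (15837 members) left 1041 higher and 1270 lower at an unadjusted p under 0.05 and 777 and 1132 separated, 40.7% higher against 50.9%. The covariate left 1171 and 991. With 2 libraries of 1 age left, the fit assumes that they vary like the other groups. Same-numbered libraries of the 2 ages deviated together with correlations of 0.34, 0.29 and -0.03. Replicate 2 at 65 days with replicate 1 at 30 days gave -0.36, and replicate 1 at 65 days with replicate 2 at 30 days gave -0.29. Whether the numbers pair the libraries is therefore not settled, and the main fit treats them as unpaired. With a replicate block, 2183 higher and 2093 lower members had an unadjusted p under 0.05 and 0 were called, and replicate 3 did not correlate best with its own number. The interaction could not be computed in fits of the 6 or 9 low-starch libraries, which hold no high-starch library. Unknown depth limits statements on members near 1 FPKM.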
